A study of Mus musculus with 16 samples.

Results

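The genes examined were 10 core components of inflammasome signalling, pyroptosis and necroptosis, listed by symbol: the sensors Nlrp3, Aim2 and Zbp1, the inflammatory caspases Casp1 and Casp4, the pore protein Gsdmd, the cytokines Il1b and Il18, and the necroptosis proteins Ripk3 and Mlkl. All 10 were found among the 56941 genes counted in bulk RNA of primary murine gingival fibroblasts (mGF), and 8 of them passed the filter on low counts that left 16306 genes to be tested. The cells were wild-type stromal cells of the gum, outgrown from explants of C57Bl6 mice aged 3 to 6 months, kept in medium with 20% serum and used at passages 2 to 8. There were 16 libraries, 4 for each of BSA (control), IL-1β at 1 ng/mL, palmitate at 200 µM and palmitate + IL-1β at these doses, collected at 24 h. The groups without palmitate received 200 µM of the albumin carrier alone, and palmitate, a saturated fatty acid, was given bound to albumin.

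Inflammasomes are protein assemblies built by sensors such as Nlrp3 and Aim2, which through the adaptor Pycard (ASC) bring procaspase-1 together so that it cleaves itself. Active caspase-1 matures the precursors of IL-1β and IL-18 and cuts gasdermin D, whose freed amino-terminal part makes pores in the plasma membrane, the step that defines pyroptosis. Casp4, named caspase-11 in the mouse, is activated by cytosolic lipopolysaccharide and cuts gasdermin D directly. In necroptosis the kinase Ripk3, switched on through Ripk1 or through the nucleic acid sensor Zbp1, phosphorylates Mlkl, which then permeabilises the membrane. Most of these steps are set by cleavage, phosphorylation and assembly of proteins, which RNA counts do not measure. Macrophages are the classical site of inflammasome activity, and fibroblasts are better known for responding to the cytokines released.

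Counts on genes ran from 21234789 to 92752515 per library, and the deepest, palmitate replicate 10, stood far above the other palmitate libraries, none of which exceeded 27076430. A floor of 3 counts equalled 0.0323 to 0.141 CPM, the counts of a gene scaled to library size, in the different libraries, for counting error only. The 11 fibroblast markers were all tested and summed to between 56923 and 69807 CPM. Against BSA, palmitate lowered 5 of them (Col1a2, Pdgfrb, Postn, Thy1 and Vim) and raised 2 (Fn1 and Pdgfra), against 17.5% and 19.8% of all genes tested. With both agents these 5, Dcn and Lum were lower and the same 2 higher, against 22.5% and 24.8%. IL-1β raised 3 (Col1a1, Fn1 and Pdgfra) and lowered 1 (Thy1), against 10.1% and 4.97%. The part of these differences in other results was not tested. The 19 leukocyte markers together reached 3.36 to 5.45 CPM in BSA, 4.42 to 4.88 under IL-1β, 3.98 to 5.34 under palmitate and 4.16 to 4.80 under palmitate + IL-1β, so these ranges overlapped in all groups. Of those 19 genes, 6 never exceeded 3 counts in a library, Ptprc had 0 to 7 counts, Adgre1 had 0 to 3 counts and was at 0 in every palmitate library, and Csf1r lay between 1.10 and 1.87 CPM. Among the 5 of them that were tested, palmitate raised Lcp1 (mean 0.313 CPM in BSA, 0.663 with palmitate, without overlap) and lowered Lyz2 (0.923 and 0.547 CPM), and palmitate + IL-1β lowered Coro1a (0.405 and 0.178 CPM), and the part of these markers in other results was not tested. The 9 epithelial markers summed to 4.65 to 4.92 CPM in BSA and to 2.07 to 2.90 CPM in the palmitate-treated groups, where Dsp was lower, and Epcam had at most 5 counts, and the part of this difference in other results was not tested. The 7 endothelial markers summed to 1.93 to 2.75 CPM, with Pecam1 at 0.124 to 0.626 CPM. In bulk RNA, fewer cells of a type and less RNA per cell cannot be told apart. The labels do not say that the libraries of a group came from separate cultures or animals, so the p-values measure the spread between these libraries, which may be technical.

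The genes spanned the whole range from absent to well expressed. In BSA, levels per kilobase of exon were 17.4 CPM for Ripk3, 8.82 for Gsdmd, 2.47 for Mlkl, 1.86 for Il18, 0.839 for Casp4 and 0.192 for Casp1. Aim2, Zbp1 and Nlrp3 followed at 0.0297, 0.0198 and 0.00669 CPM per kilobase, levels that rest on a handful of reads, and Il1b was last at 0.00311. With palmitate the order on the same scale became Ripk3 (18.1), Gsdmd (15.7), Mlkl (5.69), Casp4 (4.52), Zbp1 (1.98), Il18 (1.69), Casp1 (0.571), Nlrp3 (0.0524), Aim2 (0.0224) and Il1b (0). Ripk3 and Gsdmd had the highest and Il1b the lowest mean level per kilobase in each of the 4 groups, and in BSA the 3 sensors lay between Il1b and the others.

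**Figure D1:**
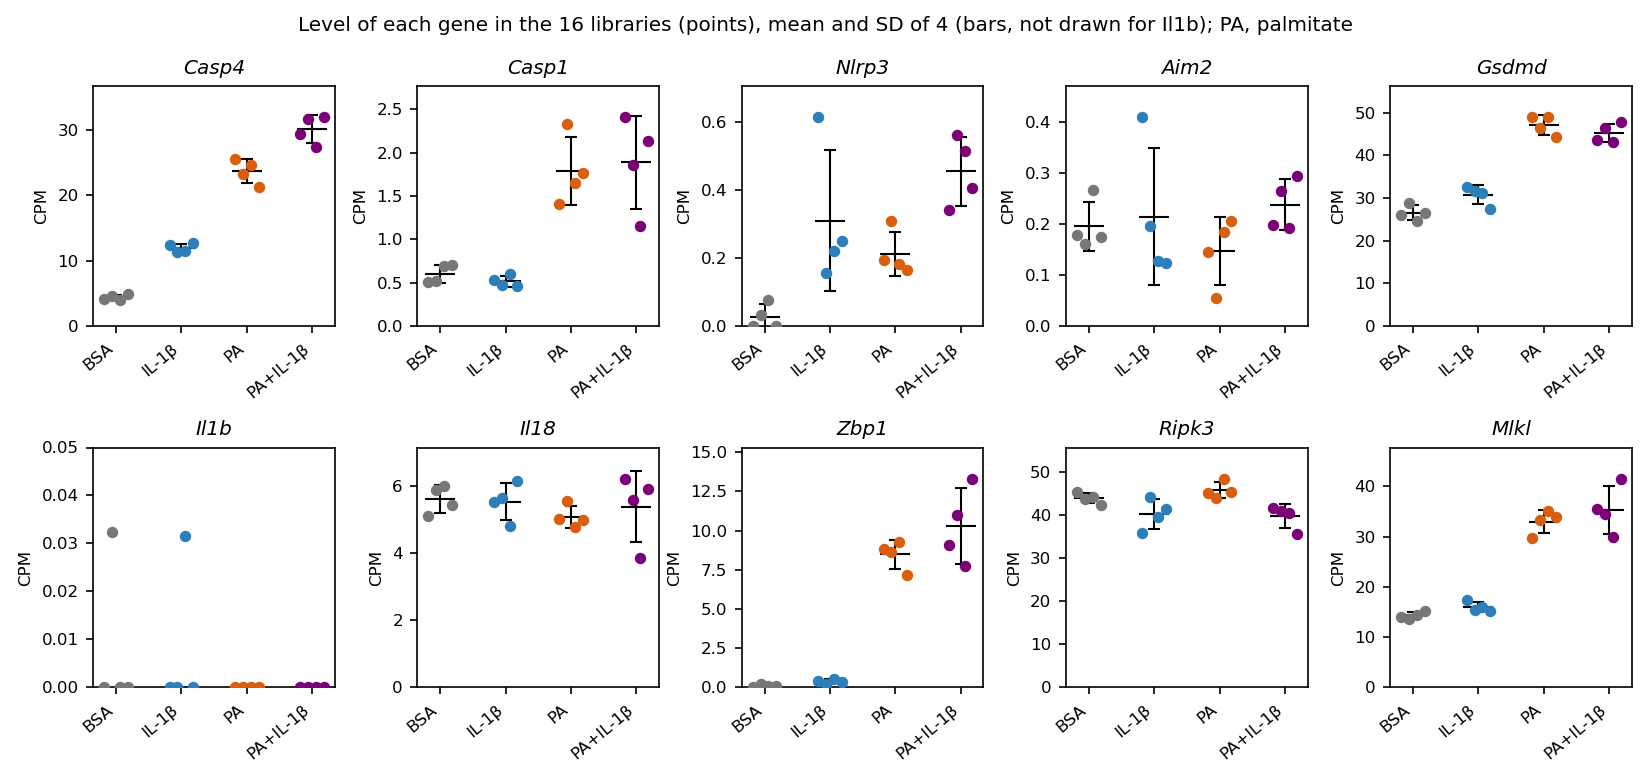
Level of each of the 10 genes in CPM (vertical axis, from 0, scaled separately for each gene) in the 16 libraries, grouped by treatment. Points are libraries, and bars give the mean and SD of 4 libraries, except for Il1b, where all but 2 libraries were at 0. Casp4, Casp1, Gsdmd, Zbp1 and Mlkl lay above the BSA range in every palmitate-treated library, whereas Il18 stayed between 3.86 and 6.20 CPM throughout.

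Palmitate raised most of the genes that could be tested. Against BSA, 6 of the 8 were higher (Casp1, Casp4, Gsdmd, Mlkl, Nlrp3 and Zbp1) and 0 were lower, where 37.3% of all genes tested were called, 19.8% as higher and 17.5% as lower. With palmitate + IL-1β these 6 were again higher and Ripk3 was lower, against 47.3% of all genes called, 24.8% as higher and 22.5% as lower. IL-1β alone raised 4 (Casp4, Gsdmd, Nlrp3 and Zbp1) and lowered 0, against 15.1% of all genes called, 10.1% as higher and 4.97% as lower. A gene was called at a Benjamini-Hochberg adjusted p under 0.05 in the quasi-likelihood test of edgeR, adjusted over the 16306 genes. The median log2 fold change of the 8 genes was 0.19 for IL-1β, 1.42 for palmitate and 1.48 for both, where the median of all genes was -0.00, -0.00 and 0.00. Nlrp3 and Zbp1 entered the test only through the groups in which they were high, so neither these counts nor these medians speak for the 10 genes as a set. The 3 comparisons share the BSA libraries and are not independent of each other.

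**Figure D2:**
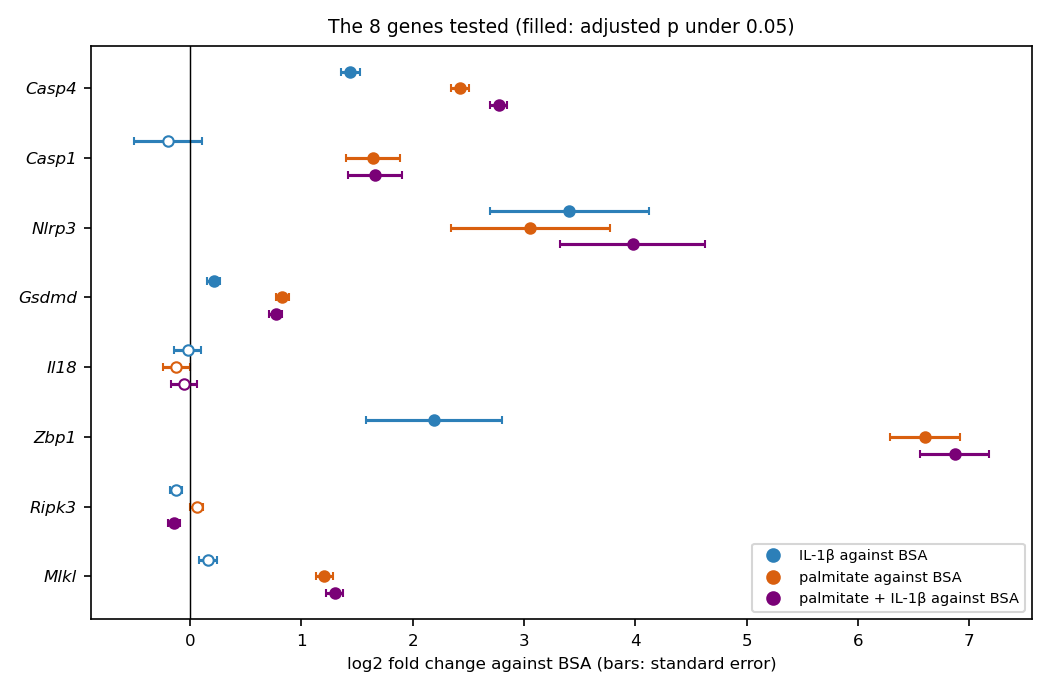
Log2 fold change against BSA (horizontal axis) of the 8 genes tested, one row per gene, for IL-1β, palmitate and palmitate + IL-1β. Bars are the standard error, and filled points passed an adjusted p of 0.05. Zbp1 lies farthest to the right for both palmitate treatments, at 6.60 and 6.87, and Il18 and Ripk3 sit beside 0.

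Nlrp3, the sensor that responds to potassium efflux and many other forms of cell stress, was close to the counting floor. It gave 0, 1, 2 and 0 counts in the 4 BSA libraries, 15, 4, 7 and 6 with IL-1β, 4, 28, 5 and 4 with palmitate, and 12, 17, 16 and 11 with palmitate + IL-1β. No BSA library had more than 2 reads, and no treated library fewer than 4. Mean levels were 0.0272 ± 0.0361 CPM in BSA, 0.310 ± 0.206 under IL-1β, 0.213 ± 0.0651 under palmitate and 0.456 ± 0.101 under palmitate + IL-1β (SD, n = 4 each). Relative to the 3 reads of all BSA libraries, scaled to depth, the count ratio was 12.1 for IL-1β (95% exact interval 3.77 to 61.5), 10.0 for palmitate (3.20 to 50.6) and 18.03 for both (5.86 to 90.1), and these intervals cover counting error only. The fitted test called the gene higher in all 3 treatments (adjusted p = 8.9e-04, 8.8e-04 and 6.1e-06), with log2 fold changes of 3.41, 3.06 and 3.98 whose size depends on the prior count. Of the 3 BSA reads, 2 came from BSA replicate 3, and without that library the log2 fold changes were 4.40, 4.05 and 4.97. Palmitate + IL-1β exceeded palmitate in every library, but its log2 difference of 0.92 (SE 0.40) was not called (adjusted p = 0.164), nor was that against IL-1β (0.57, adjusted p = 0.304). Among the treated libraries only 4 passed the filter's cutoff of 0.358 CPM, 1 of IL-1β and 3 of palmitate + IL-1β, which is the smallest number that admits a gene to the test. No BSA or palmitate library passed it. With only the libraries compared in the fit, Nlrp3 was not tested for IL-1β or for palmitate against BSA. The adjusted p-values above belong to a gene admitted through groups in which it was high, and lend no independent support.

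Aim2, the cytosolic DNA sensor, stayed near the floor and was not tested. Its reads numbered 6, 5, 7 and 5 in BSA, 10, 5, 4 and 3 with IL-1β, 3, 5, 5 and 5 with palmitate, and 7, 8, 6 and 8 with both agents. The groups overlapped in all 6 pairings of treatments, and the mean was 0.195 CPM in BSA against 0.214, 0.147 and 0.238 in the treated groups. Against BSA, the ratio of summed counts, scaled to depth, was 1.08 for IL-1β (95% exact interval 0.575 to 2.03), 0.574 for palmitate (0.292 to 1.11) and 1.22 for both, each with an interval that held 1, so that no difference from BSA was detectable at this depth. Between palmitate + IL-1β (29 reads) and palmitate (18 reads) the ratio was 2.12 (1.14 to 4.05), an interval that covers counting error only, and the libraries of these groups overlapped. Summed counts weigh the deep palmitate replicate 10 most, which held 5 reads (0.0551 CPM) against 0.146 to 0.205 CPM in the other palmitate libraries. With equal weight for each library, the ratio of mean CPM was 1.61 for this pair and 0.755 for palmitate against BSA.

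Casp4 differed between each pair of the 4 groups. Its level was 4.20, 4.59, 4.01 and 4.82 CPM in the BSA libraries, 12.4, 11.4, 11.5 and 12.7 with IL-1β, 25.6, 23.3, 24.7 and 21.3 with palmitate, and 29.5, 31.7, 27.5 and 32.0 with palmitate + IL-1β. The 4 groups did not overlap and each step of this order was called. Casp4 rose 2.72-fold with IL-1β (log2 fold change 1.44, SE 0.09, adjusted p = 3.3e-14), 5.38-fold with palmitate (2.42, SE 0.08, adjusted p = 1.2e-21) and 6.84-fold with both (2.77, SE 0.08, adjusted p = 1.8e-23). Palmitate + IL-1β exceeded palmitate by 0.35 (SE 0.06, adjusted p = 3.3e-04) and IL-1β by 1.33 (adjusted p = 3.6e-16), and palmitate exceeded IL-1β by 0.98 (adjusted p = 9.0e-13), all on the log2 scale.

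Casp1, whose protein is the caspase recruited by inflammasomes, was scarcer. It rose with palmitate, and its difference with IL-1β alone was not called. It was counted at 17, 16, 18 and 20 reads in BSA and at 13, 12, 19 and 11 with IL-1β, or 0.601 ± 0.106 and 0.514 ± 0.0669 CPM (SD, n = 4). With palmitate it reached 29, 212, 45 and 43 reads and with palmitate + IL-1β 85, 56, 36 and 58, or 1.79 ± 0.393 and 1.89 ± 0.538 CPM, and neither group overlapped BSA. The highest of the palmitate values belonged to the deep library, at 2.34 CPM. Casp1 rose by 1.64 with palmitate (SE 0.24, adjusted p = 1.2e-06) and by 1.66 with both (adjusted p = 8.7e-07) on the log2 scale. For IL-1β alone its log2 fold change was -0.20 (SE 0.30, adjusted p = 0.730, 95% interval -0.79 to 0.39), and palmitate + IL-1β differed from palmitate by 0.02 (adjusted p = 0.973, 95% interval -0.38 to 0.41).

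Both caspase genes lie side by side on chromosome 9. In GRCm39, Casp1 occupies positions 5298508 to 5307290 and Casp4 positions 5308828 to 5336783, on the same strand and 1537 bases apart, and the related Casp12 begins 8631 bases further on. The 250 bases before a start site are printed for these neighbours because IL-1β raised Casp4 and its effect on Casp1 was not called. They come from RefSeq, build GRCm38.p6, plus strand, at chr9:5298267-5298516 for Casp1 and chr9:5308599-5308848 for the first of the Casp4 start sites, with capitals marking matches to a form of the NF-kB motif on either strand, either GGG and TTTCC with any 2 bases between them or GGG and TTCC with any 3.

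Casp1: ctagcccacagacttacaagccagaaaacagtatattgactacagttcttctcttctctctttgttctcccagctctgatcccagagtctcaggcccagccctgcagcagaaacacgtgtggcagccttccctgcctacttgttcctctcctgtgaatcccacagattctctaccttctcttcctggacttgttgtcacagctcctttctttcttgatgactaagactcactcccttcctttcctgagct

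Casp4: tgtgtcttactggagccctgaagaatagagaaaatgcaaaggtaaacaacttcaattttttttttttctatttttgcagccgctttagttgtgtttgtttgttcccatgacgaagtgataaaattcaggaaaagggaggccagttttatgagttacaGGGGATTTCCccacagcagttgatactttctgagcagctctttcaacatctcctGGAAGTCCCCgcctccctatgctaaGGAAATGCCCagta

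The Casp4 window held 3 matches, GGGGATTTCC at bases 93 to 84 before the start, GGAAGTCCCC at 39 to 30 and GGAAATGCCC at 14 to 5, the last pair read on the minus strand. The wider form, with 3 free bases, includes the narrower and was present in 4.65% of 32851 RefSeq promoter windows of the same length, and the narrower in 1.41%. At least 2 matches at different positions were found in 0.146% and at least 3 in 0.0183% of windows, shares that were computed after the Casp4 matches had been seen. The 6 windows with at least 3 matches include both windows of Casp4, whose bases largely overlap. These shares therefore rest partly on Casp4 itself. The interferon-related cores TTCNNNGAA (the GAS core, in 7.02% of windows) and a TTTC repeated after any 2 bases (the ISRE core, in 2.98%) were also searched on both strands. Windows were found for 8 of the 10 genes (all but Gsdmd and Zbp1), and outside Casp4 none held a match to any of the 4 forms. Such matches describe letters and not binding, and their part in the response was not tested.

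Gsdmd, the pore-forming substrate of both caspases, was well expressed and rose moderately. Levels were 26.1, 28.8, 24.6 and 26.5 CPM in BSA, 32.7, 31.6, 31.2 and 27.5 with IL-1β, 48.9, 46.5, 48.9 and 44.2 with palmitate, and 43.7, 46.3, 43.2 and 47.7 with palmitate + IL-1β. The palmitate-treated libraries all lay above the others, while the lowest IL-1β library fell within the BSA range. The rise was 1.78-fold with palmitate (log2 fold change 0.83, SE 0.06, adjusted p = 1.8e-13) and 1.71-fold with both (0.77, adjusted p = 8.0e-13). With IL-1β it was 1.16-fold (0.21, SE 0.06, adjusted p = 0.0117), a call lost under upper-quartile scaling (0.17, adjusted p = 0.0530). On top of palmitate, IL-1β brought no called difference (-0.06, adjusted p = 0.590, 95% interval -0.17 to 0.05).

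No change was called for either cytokine substrate. Il1b had 1 read in BSA replicate 2, 1 read in IL-1β replicate 7 and 0 in the other 14 libraries, which include every palmitate-treated one, so it was not tested, and levels up to the floors of 0.0323 to 0.141 CPM cannot be told from 0. The added IL-1β was recombinant protein and contributes no RNA. Il18 was present in every library at 3.86 to 6.20 CPM, with means of 5.59 ± 0.417 in BSA, 5.52 ± 0.543 under IL-1β, 5.07 ± 0.324 under palmitate and 5.38 ± 1.05 under palmitate + IL-1β (SD, n = 4). None of its comparisons was called, and all groups overlapped. For palmitate against BSA its log2 fold change was -0.12 (SE 0.12, adjusted p = 0.456) with a 95% interval of -0.35 to 0.11.

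Zbp1, the sensor of left-handed nucleic acid that can recruit Ripk3, went from near absence to clear expression. Its counts were 0, 6, 2 and 2 in BSA, 10, 6, 18 and 8 with IL-1β, 182, 782, 253 and 175 with palmitate, and 321, 332, 241 and 361 with palmitate + IL-1β. On the CPM scale the BSA libraries reached 0.194 at most, the IL-1β libraries lay between 0.234 and 0.570, and the palmitate-treated libraries between 7.19 and 13.3. The groups with and without palmitate were thus separated by more than the whole spread within either. Against the 10 reads of BSA, scaled to depth, the count ratio was 102 for palmitate (95% exact interval 55.4 to 214) and 121 for both (65.7 to 253), for counting error only. The fitted log2 fold changes were 6.60 (SE 0.32, adjusted p = 6.7e-14) and 6.87 (SE 0.31, adjusted p = 1.5e-14). BSA replicate 2 held 6 of the 10 BSA reads, and without it these log2 fold changes were 7.43 and 7.69. For IL-1β alone the count ratio was 4.75 (2.34 to 10.6), from 42 reads, and the log2 fold change 2.19 (SE 0.61, adjusted p = 0.0166) was lost without BSA replicate 1 (1.73, adjusted p = 0.05002) or IL-1β replicate 7 (1.90, adjusted p = 0.0732) and was 3.02 without BSA replicate 2 (adjusted p = 0.00606). Palmitate + IL-1β and palmitate overlapped, and their difference of 0.27 was not called (adjusted p = 0.297).

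Mlkl, the executor of necroptosis, rose with palmitate, and its difference with IL-1β alone was not called. It was measured at 13.9, 13.7, 14.4 and 15.3 CPM in BSA, 17.5, 15.5, 16.0 and 15.2 with IL-1β, 29.6, 33.2, 35.1 and 33.9 with palmitate, and 35.4, 34.5, 29.9 and 41.5 with palmitate + IL-1β. BSA and IL-1β libraries overlapped, and every palmitate-treated library lay above both. Mlkl rose 2.30-fold with palmitate (log2 fold change 1.20, SE 0.08, adjusted p = 1.3e-13) and 2.47-fold with both (1.30, adjusted p = 1.5e-14). The difference with IL-1β alone was 0.16 (SE 0.08, adjusted p = 0.198), and that between palmitate + IL-1β and palmitate 0.10 (adjusted p = 0.468, 95% interval -0.04 to 0.24). At 95% identity or more, 23.98% of the Mlkl transcript is shared with other annotated transcripts, 14.1% with Rps27a, and reads that matched more than 1 place were not counted, so its level may be understated.

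Ripk3, the kinase between Zbp1 and Mlkl, was the most abundant gene of the set per kilobase and moved least among those called. It lay at 45.4, 43.8, 44.1 and 42.5 CPM in BSA, 35.8, 44.3, 39.5 and 41.4 with IL-1β, 45.3, 44.1, 48.5 and 45.4 with palmitate, and 41.8, 41.1, 40.5 and 35.7 with palmitate + IL-1β. The combined group was below BSA by 0.14 (SE 0.06, adjusted p = 0.0386) and below palmitate by 0.20 (SE 0.06, adjusted p = 0.0192) on the log2 scale, without overlap in either case. The first call was lost without BSA replicate 1, BSA replicate 3 or palmitate + IL-1β replicate 16 (log2 fold changes of -0.14 to -0.09), and the other without palmitate replicate 11 or palmitate + IL-1β replicate 16 (-0.17 to -0.15). Palmitate and BSA overlapped, with a difference of 0.06 (adjusted p = 0.458, 95% interval -0.05 to 0.17) that took the opposite sign under upper-quartile scaling (-0.01). IL-1β and BSA overlapped too, and their difference of -0.13 (adjusted p = 0.143) was called under upper-quartile scaling (-0.17, adjusted p = 0.0359) and without IL-1β replicate 6 (-0.18, adjusted p = 0.0459). Palmitate exceeded IL-1β by 0.18 (adjusted p = 0.0128), a difference of overlapping groups that was lost without IL-1β replicate 5 or palmitate replicate 11.

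Adding IL-1β to palmitate changed 2 of the 8 genes against palmitate alone, Casp4 upward and Ripk3 downward, where 9.81% of all genes were called, 5.71% as higher and 4.1% as lower. Adding palmitate to IL-1β raised 5 (Casp1, Casp4, Gsdmd, Mlkl and Zbp1), where 35% of all genes were called, 18.9% as higher and 16.1% as lower. Between the single agents, palmitate was the higher in 6 (the same 5 and Ripk3), where 31.6% of all genes were called, 16.5% as higher for palmitate and 15.2% as lower. Libraries of the 2 groups compared did not overlap for 3 of the 8 genes in IL-1β against BSA (17.6% of all genes tested), 6 in palmitate against BSA (36%), 7 in both against BSA (41.5%), 5 in both against IL-1β (31.3%), 3 in both against palmitate (16.7%) and 5 in palmitate against IL-1β (31.1%). Each of these counts includes Nlrp3 or Zbp1, which entered the test only through groups in which they were high. Neither these counts nor the calls above speak for the 10 genes as a set. Whether the effect of palmitate differed in the presence of IL-1β was tested as an interaction. It was called for Casp4 alone (log2 difference -1.09, SE 0.11, adjusted p = 1.6e-08), where 1.99% of all genes were called, 1.83% as lower and 0.159% as higher. Palmitate raised Casp4 by 2.42 without IL-1β and by 1.33 with it. The differences were -2.49 for Nlrp3 (SE 0.87, adjusted p = 0.194), -1.92 for Zbp1 (SE 0.63, adjusted p = 0.178, and 0.0177 in DESeq2), -0.27 for Gsdmd (SE 0.08, adjusted p = 0.0826), -0.07 for Mlkl (adjusted p = 0.905) and 0.22 for Casp1 (adjusted p = 0.909).

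This interaction is measured on a log scale, where multiplying effects give 0, and the picture for Casp4 differed on the CPM scale. There, IL-1β added 7.58 CPM and palmitate 19.3 CPM to the BSA level, so that the sum of these increments and the BSA level was 31.3 CPM, and 30.1 CPM were observed with both. The difference of -1.15 CPM was smaller than its standard error of 1.46. For Gsdmd the same sum was 51.4 CPM and the observed mean 45.2 CPM, a difference of -6.15 with a standard error of 2.11. For Nlrp3 the observed mean was 0.0400 CPM below the sum (standard error 0.121), for Mlkl 0.692 CPM above it (standard error 2.72), and for Zbp1 1.496 CPM above it (standard error 1.29). These CPM-scale values carry no test and were computed after the interaction had been seen.

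**Figure D3:**
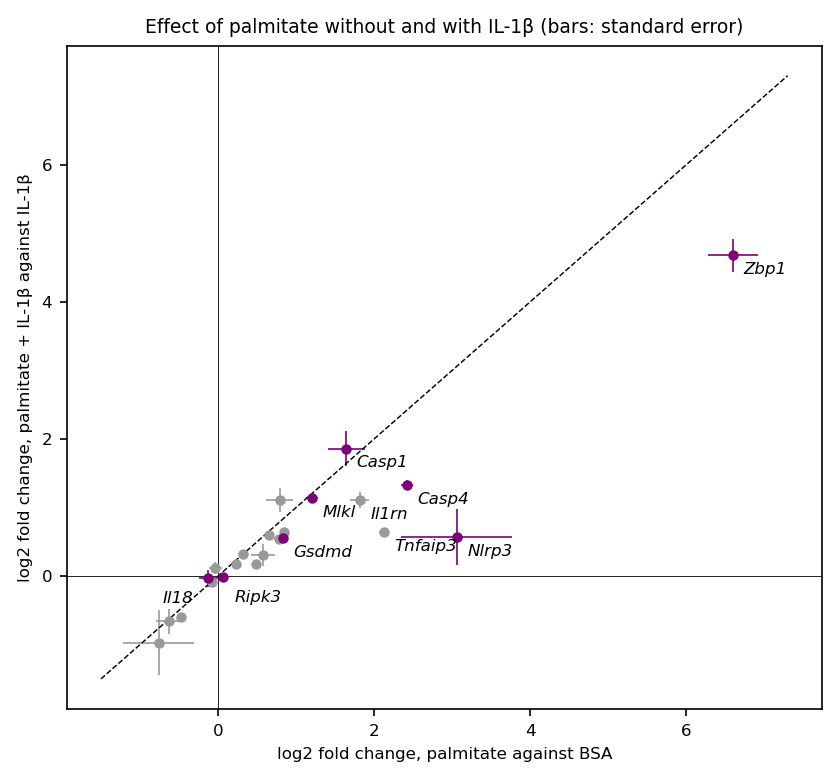
Log2 fold change for palmitate without IL-1β (horizontal axis) against that with IL-1β (vertical axis), with standard errors. Purple points are the 8 genes tested, grey points 15 partner genes, and the dashed line marks equal effects. Casp4 (2.42 and 1.33), Nlrp3 (3.06 and 0.57), Zbp1 (6.60 and 4.68), Gsdmd (0.83 and 0.56) and the partner Tnfaip3 lie below the line. Of these, the interaction was called for Casp4 and Tnfaip3 only. It was also called for the partners Casp8 (0.48 and 0.18) and Il1rn (1.82 and 1.11), which lie below the line too. Casp1 and Mlkl lie on the line within their errors.

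The partners of these proteins were read from a fixed list of 16 genes. Pycard, the adaptor that Nlrp3 and Aim2 need to engage caspase-1, was scarce, at 0.314 CPM in BSA, 0.358 under IL-1β, 0.159 under palmitate and 0.176 under palmitate + IL-1β, and its palmitate difference was not called (log2 fold change -0.76, adjusted p = 0.200). Nek7, a kinase that licenses Nlrp3, was abundant (136 to 147 CPM) and fell by 0.11 on the log2 scale with both agents (adjusted p = 0.0239), a call that was lost when any of 3 single libraries was left out. With palmitate alone its difference was -0.08 (adjusted p = 0.117), which was called under upper-quartile scaling (-0.15, adjusted p = 0.00178). Txnip, a thioredoxin-binding protein reported to associate with Nlrp3, fell from 114 CPM in BSA to 81.7 with palmitate (-0.48, adjusted p = 1.2e-08) and 83.3 with both (-0.45). Of the 16 inflammasome sensors and adaptors listed beside the 10 genes, 7 were tested, and palmitate raised 2 (Naip2 and Nlrc5) and lowered 1 (Txnip), with a median log2 fold change of -0.08, where 19.8% of all genes were called higher and 17.5% lower. IL-1β changed 0 of these 7, where 15.1% of all genes were called.

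Among the executors, Ninj1, which ruptures the membrane after pyroptosis, rose from 13.2 CPM in BSA to 16.9 with IL-1β, 22.8 with palmitate (0.78, adjusted p = 6.8e-11) and 24.6 with both (0.89). Casp8, which cuts Ripk1 and restrains necroptosis, rose from 50.8 CPM to 60.9, 70.9 and 69.2 (0.48 with palmitate, adjusted p = 2.2e-09). Its interaction was called (-0.30, SE 0.07, adjusted p = 0.0143), a call lost when any of 4 single libraries was left out. Gsdme, another gasdermin, rose from 2.79 to 4.26 CPM with palmitate (0.58, adjusted p = 0.00302) and was 3.41 CPM with both, which was not called. Casp12 rose from 54.1 to 67.3 CPM (0.32, adjusted p = 4.5e-07). Of the 17 genes listed for pyroptosis execution, 9 were tested and palmitate raised 7 and lowered 0, with a median of 0.32, against 19.8% and 17.5% of all genes. IL-1β raised 2 of them (Casp8 and Ninj1) and lowered 1 (Chmp3), against 10.1% and 4.97% of all genes.

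Il1rn and Il18bp, inhibitors of IL-1 and IL-18, rose with palmitate. Il1rn, the antagonist of the IL-1 receptor, rose from 2.15 CPM in BSA to 7.61 with palmitate (log2 fold change 1.82, adjusted p = 9.0e-14) and 6.02 with both (1.49), and its 2.78 CPM with IL-1β was not called against BSA. Its lower level with both than with palmitate (-0.33, adjusted p = 0.0461) was lost when any of 6 single libraries was left out, and its interaction (-0.71, adjusted p = 0.0222) when any of 4 was. Il18bp, which binds free IL-18, rose from 1.63 to 2.87 CPM with palmitate (0.79, adjusted p = 3.6e-04) and to 3.17 CPM with both (0.95). Il33, an alarmin of the same family, fell from 2.84 to 1.89 CPM (-0.62, adjusted p = 0.00320) and to 1.53 CPM with both (-0.88). Il1a had at most 6 counts in a library, was at 0 in all IL-1β libraries and was not tested. Of the 10 family members and inhibitors listed, these 3 (Il1rn, Il18bp and Il33) were the only ones tested. Palmitate raised 2 and lowered 1 of them, where 19.8% of all genes were called higher and 17.5% lower.

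Of 27 regulators listed around Ripk3 and Mlkl, 15 rose with palmitate. Tnfaip3, the deubiquitinase A20, showed the largest change of the partners, from 8.08 CPM in BSA to 26.8 with IL-1β (1.73), 35.3 with palmitate (2.12, adjusted p = 1.9e-22) and 42.0 with both (2.37), and like Casp4 it had a negative interaction (-1.48, adjusted p = 1.0e-13). Cflar, whose product dampens caspase-8, rose from 89.9 to 117, 161 and 183 CPM (0.84 with palmitate, adjusted p = 8.8e-16), and palmitate + IL-1β exceeded palmitate by 0.19 (adjusted p = 0.00545). Adar, an RNA editor that limits ligands of Zbp1, rose from 43.9 to 52.4, 69.3 and 79.8 CPM (0.66 with palmitate, adjusted p = 2.5e-12). Ripk1 rose from 102 to 120 CPM with palmitate (0.23, adjusted p = 1.8e-05), and Fadd, at 8.54 to 9.30 CPM in all groups, was not called (-0.03 with palmitate, adjusted p = 0.814). All 27 genes listed for necroptosis signalling were tested: palmitate raised 15 and lowered 0 (median 0.21), IL-1β raised 10 and lowered 0 (median 0.10), and both agents raised 17 and lowered 1, Sharpin (median 0.16). Of all genes, 19.8% were called higher and 17.5% lower with palmitate, 10.1% and 4.97% with IL-1β, and 24.8% and 22.5% with both. The interaction was called as lower for 3 of the 27 (Birc3, Casp8 and Tnfaip3) and as higher for 0, against 1.83% and 0.159% of all genes. Casp8 is counted in both this list and that of pyroptosis execution, and the list holds inhibitors as well as promoters of necroptosis. For all genes tested the medians were between -0.00 and 0.01.

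**Figure D4:**
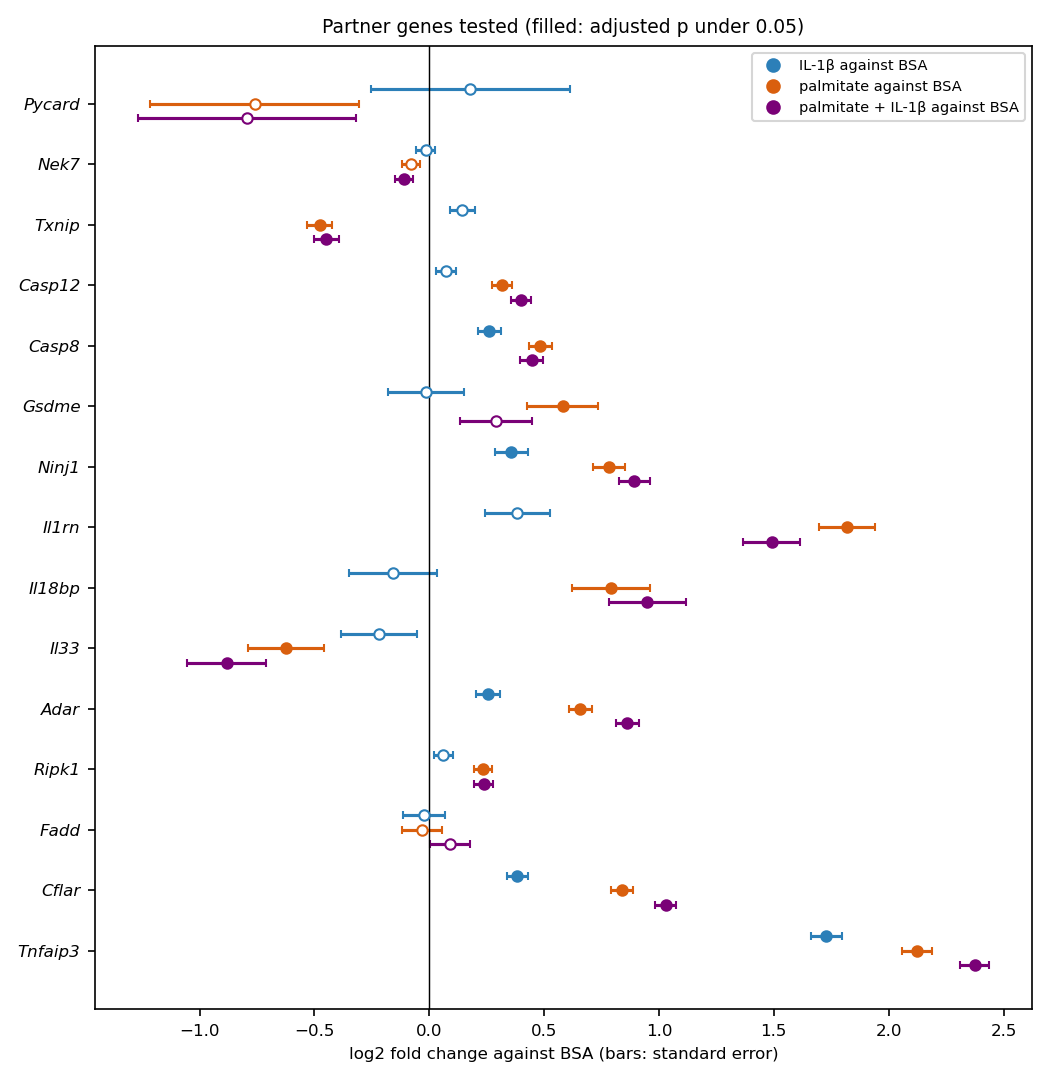
Log2 fold change against BSA (horizontal axis) of the 15 partner genes tested, one row per gene, for IL-1β, palmitate and palmitate + IL-1β. Bars are the standard error, and filled points passed an adjusted p of 0.05. Tnfaip3 reaches 1.73, 2.12 and 2.37, while Txnip and Il33 lie below 0 with palmitate.

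Across the 16 libraries, Pearson's r of log2 CPM between any pair of Casp1, Casp4, Gsdmd, Mlkl and Zbp1 lay between 0.79 and 0.98. It was 0.98 between Gsdmd and Zbp1, 0.97 between Mlkl and Zbp1 and 0.96 between Gsdmd and Mlkl. For Nlrp3, also called with palmitate, r with these 5 was between 0.47 (Casp1) and 0.82 (Casp4), while r of Il18 with any of the other 7 lay between -0.29 and -0.08. For Ripk3 it lay between -0.54 (with Nlrp3) and 0.04 (with Casp1). The libraries share the 4 treatments, so these values describe treatment means as much as single libraries. Among all other tested genes, Zbp1 was closest to Gbp7 (0.991), Gbp11 (0.989) and Parp9 (0.989), and Mlkl to Ifi203 (0.991), Ifi205 (0.990) and Trim30d (0.990). Casp4 was closest to Nfkbiz (0.997), Icosl (0.995) and Gm16685 (0.994), and Casp1 to Stat3 (0.966), Scin (0.959) and Mlkl (0.958). The nearest genes to Gsdmd were Mtap (0.986), Sdc4 (0.985) and Jun (0.984), to Nlrp3 Prkar2b (0.942), Mtrr (0.937) and Tob2 (0.923), and to Ripk3 R74862 (0.900), Prpsap1 (0.872) and Gpr180 (0.866). For Il18 no gene passed 0.771 (Gm57411), followed by Chm (0.769) and Morn1 (0.765). The Gbp and Ifi families are known as genes induced by interferons.

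Of the 10 genes, none overlapped another annotated gene on its own strand in GRCm39. The others besides the caspases lie at chr11:59432394-59457782 (Nlrp3), chr1:173178445-173293930 (Aim2), chr15:75733974-75739257 (Gsdmd), chr2:129206490-129213059 (Il1b), chr9:50466081-50493633 (Il18), chr2:173033815-173060724 (Zbp1), chr14:56022452-56026324 (Ripk3) and chr8:112036296-112065168 (Mlkl). All are annotated as protein-coding. Opposite-strand genes overlap Aim2, Casp1, Gsdmd, Il18, Il1b, Mlkl and Ripk3, and the counting was by strand.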

How the data were processed

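The authors sequenced paired-end libraries and used Trimmomatic 0.39 for trimming, STAR 2.7.10a for alignment to GRCm39 and HTSeq 2.0.9 for counting by gene and strand. The table they deposited holds these counts without filter or scaling. A stranded kit for total RNA is named in the labels, whereas the study's methods give oligo(dT) priming. A set of 5 summary rows that name no gene (18.3 to 21.4% of each library) was left out. The counts were tested with edgeR 4.0.16 in R 4.3.3 (TMM scaling, filterByExpr with a minimum count of 10 and total of 15, glmQLFit with robust estimation, glmQLFTest, Benjamini-Hochberg adjustment over 16306 genes), with all 16 libraries in a single fit of 4 group means and no covariate. Groups were taken from the sample titles. Levels are CPM on TMM-scaled totals, per kilobase of merged exons where genes are compared. The SE of a log2 fold change is its absolute value over the square root of the F statistic of the quasi-likelihood test. Intervals of log2 fold changes are the estimate ± 1.96 SE, the multiple of a normal distribution, and are approximate. Likeness used log2 CPM with a prior count of 2. Positions came from GENCODE vM39. The steps were tested on simulated data.

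The 10 genes and the lists were chosen with earlier results of these data known. Named were all 10 genes, 16 fixed partners, the 3 genes most alike to each tested gene, and defining markers of other cell types. Alternatives were DESeq2 1.42.0, upper-quartile and RLE scaling, no filter, only the libraries compared, each library left out in turn and, for CPM levels only, totals without TMM factors. The sum of single effects on the CPM scale was added after seeing the data. A single gene was left out of the lists and is not reported here.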

Additional observations from a re-analysis of the deposited data

Results flagged for a closer look

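In each of 38 combinations of gene and group that held more than 1 value, the highest and lowest library were compared with the others, and 3 stood apart. Chance gives about 1 in 20 for continuous values, a rate that does not hold for the few reads of these 3. Il1b was at 0.0323 CPM in BSA replicate 2 and at 0.0317 CPM in IL-1β replicate 7. Each of these values is 1 read against 0 in the 3 other libraries of its group, a pattern that is always flagged. Aim2 was at 0.267 CPM in BSA replicate 3, from 7 reads, against 0.162 to 0.178 CPM, from 5 or 6 reads, in the other BSA libraries. The effect of palmitate on Casp4 differed between cells with and without IL-1β by -1.09 on the log2 scale (SE 0.11, adjusted p = 1.6e-08 in edgeR). Casp4 was higher in 8 of 8 palmitate-treated libraries than in any library of the matching group without palmitate.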

How the results depend on the processing

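Counts of called genes against BSA for palmitate (6), and for palmitate + IL-1β against IL-1β (5), were 6 and 5 in every fit that left out a library. Of the 16477 to 16619 genes tested in these fits, 5167 to 5787 and 5021 to 5413 were called. For IL-1β against BSA, the fit of only the libraries compared called 2 in place of 4, with 6 of the 10 genes tested (for palmitate, 5 of 7 tested), and 3 to 5 were called when a library was left out. Of all genes, the fit of only the libraries compared called 2118 of 15337 for IL-1β and 6334 of 15519 for palmitate. With a library left out, 1784 to 2486 of all genes were called for IL-1β. Ripk3, not called with IL-1β, was called lower under upper-quartile scaling (-0.17) and without IL-1β replicate 6 (-0.18). The interaction, called for 1 gene, was called for 2 by DESeq2 (360 of all 16306 genes) and for 3 without the filter (413 of 38131). With a library left out it was called for 1 to 3 (258 to 371 of all genes). Those added were Zbp1 (DESeq2 -1.97, adjusted p = 0.0177; no filter -1.93, adjusted p = 0.00356) and Gsdmd (no filter -0.28, adjusted p = 0.0499). Palmitate + IL-1β against palmitate gave 1 to 2 calls when a library was left out (1161 to 1492 of all genes). Signs turned only where no fit made a call: Ripk3, palmitate against BSA, upper-quartile scaling, -0.0110; Casp1, palmitate + IL-1β against palmitate, -0.0124 without the filter and -0.0128 with only the libraries compared. With single libraries left out, log2 ranges spanning 0 were -0.13 to 0.23 for Casp1 and -0.0163 to 0.20 for Il18 (palmitate + IL-1β against palmitate), -0.0748 to 0.0429 (IL-1β against BSA), -0.15 to 0.0791 (both against BSA) and -0.12 to 0.10 (both against IL-1β) for Il18, -0.0659 to 0.0337 for Ripk3 (both against IL-1β), -0.74 to 0.18 for Nlrp3 (palmitate against IL-1β), -0.15 to 0.00539 for the interaction of Mlkl, and -0.0852 to 0.0200 for Fadd (palmitate against BSA). The causes were not tested. Over the 8 genes tested, direction and call were unchanged in 259 of 267 combinations of gene, comparison and alternative, and in 483 of 512 with a library left out. Combinations in which a gene fell under the filter are not among the 267, so a call lost that way is not counted as a change. With only the libraries compared, this held for Nlrp3 and Zbp1 in IL-1β against BSA and for Nlrp3 in palmitate against BSA. Depth limits Nlrp3, Aim2 and Il1b. No paired analysis was possible because the replicate numbers, 1 to 16, are not shared between groups.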
